A study of Drosophila melanogaster with 64 samples.

Results

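The left arm of chromosome 2 of Drosophila melanogaster was described between 2 and 10 Mb, gene by gene, in testes of males that carry translocations between the X chromosome and chromosome 2. The interval was defined by position alone: a gene belonged to it when it lay on 2L in the count table and started from 2000000 to 10000000. It held 1296 of the 17606 genes counted, against 2159 genes on the rest of 2L, and 4 further genes of the interval were left out. By annotation 1025 of the 1296 genes were protein coding, 213 were non-coding RNA genes, 28 were tRNA genes, 11 were pseudogenes, 10 were snoRNA genes and 4 were snRNA genes, while 5 had no entry. The interval was picked with the differences between sterile and fertile lines, and among lines, already known from these libraries. Those differences are therefore given as a description: genes are counted by an adjusted p, but the counts are no support for the choice of the interval. The comparison of adult with larval testes, which the choice did not use, is given as a test.

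Males of 5 lines carried a translocation labelled sterile (BM1, BM5, BM6, BM24 and BM46), males of 2 lines a translocation labelled fertile (BM4 and BM21), and the irradiated parental stock without a translocation was the control. The parental stock was counted with the fertile lines, which makes 5 sterile and 3 fertile lines. Each T(1;2) is an exchange that joins material of the X to chromosome 2, and each line is 1 named translocation, so a line is a single genotype and not a sample of many. All 8 lines carried the X duplication Dp(1;1)scV1 with y2 and y+, sc+ and scV1, su(wa), wa, cv, v and f. Sterile translocations came from stocks with FM7i, P{ActGFP}JMR3 females. Fertile translocations and the parental stock came from stocks with compound-X females, C(1)M4, y. Sterility class and stock are the same split of the lines and cannot be told apart. No source used here gives the place on 2L where each chromosome was broken.

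Testes of adults aged 1 to 5 days and of larvae late in the third instar (L3) were dissected, with 4 pools per line and stage, each of 20 adult or 15 larval testes. Depth was 2971832 to 24650332 counts in 29 adult libraries, and the 32 L3 libraries held 8961413 to 21275143 counts. The other 3 adult libraries, BM6 replicate 3 and BM24 replicates 2 and 3, held 20387 to 233047 counts. They entered the sums per line and, as single libraries, the main comparisons of lines with the parental stock. They did not enter the values given per library. All 12 germline markers of testis were detected in both classes and stages, and their summed level in adults was 10581 to 12289 CPM (counts scaled to a fixed library total) in sterile libraries and 8998 to 11770 CPM in fertile libraries. In 7 adult libraries (BM1 replicates 1 and 4, BM6 replicates 1 and 2, BM4 replicates 2 and 3, and BM21 replicate 4) accessory gland markers stood out. The summed level of those 12 markers had a median of 45.8 CPM in sterile adult libraries and 41.6 CPM in fertile ones, with maxima of 7226 and 1107 CPM. In bulk tissue, fewer cells of a type and less RNA per cell cannot be told apart.

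The genes along this stretch have unrelated roles. They include secreted signals of early patterning and growth (dpp, Wnt4, Wnt6 and Pvf2), the giant cadherin ft, the clock gene tim, collagen and laminin chains of basement membranes, enzymes made by fat body, seminal fluid proteins of the male reproductive glands, and a few regulators of spermatocyte transcription (Taf12L and tomb). In the fly, translocations that join the X to a large autosome often leave males sterile.

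Sterile and fertile lines differed most in scattered single genes of the interval, such as CG11034, Trf5, CG2772 and asRNA:CR43464, and in both directions. A gene counts as called at a Benjamini-Hochberg adjusted p under 0.05 in edgeR's quasi-likelihood test on the summed counts of 5 sterile against 3 fertile lines. In adults 69 of 1041 tested genes (6.63%) were called, 37 higher and 32 lower in sterile lines, beside 2.76% of all 13596 genes (1.48% higher and 1.28% lower). At L3 99 of 984 (10.1%) were called, 45 higher and 54 lower, beside 5.53% of all 13132 genes (3.26% higher and 2.27% lower). On the rest of 2L the shares called were 2.79% in adults and 6.37% at L3, and on the X they were 0.289% and 1.33%. These counts moved with the tool and with single lines. DESeq2 called 181 genes in adults and 176 at L3. Without BM4 the adult count was 23, and without BM6 the L3 count was 60. With scaling by library size alone the adult calls split into 32 higher and 51 lower.

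The calls were not even along the interval. In adults the window from 3 to 4 Mb held 17 called genes of 125 (13.6%) and that from 4 to 5 Mb 12 of 118 (10.2%), while 3 of 145 genes (2.07%) were called from 6 to 7 Mb. At L3 the same 3 windows held 20 of 110 (18.2%), 13 of 113 (11.5%) and 7 of 145 (4.83%). Over the 8 windows the median share was 6.91% in adults, against 2.71% in the 16 other windows of 2L, which reached at most 4.90%. At L3 the medians were 9.68% inside and 6.38% outside, where single windows reached 12.5%. The direction also changed with position at L3. From 3 to 4 Mb 12 called genes were higher and 8 lower in sterile lines, whereas from 4 to 5 Mb 3 were higher and 10 lower, and from 7 to 8 Mb 1 was higher and 9 were lower.

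At the lower bound the first genes inside were asRNA:CR43464 (start 2000058), CG15353 (2006763) and asRNA:CR45712 (2006867), and the nearest genes outside were CG33543 (1997102) and Obp22a (1991381). At the upper bound bib (9984645), CG31875 (9995561) and SoYb (9996706) lay inside, and Ndf (10003832) and asRNA:CR44873 (10004310) lay outside. The first 100 kb inside the bound at 2 Mb held 6 called genes of 13 at L3, among them asRNA:CR43464, CG15353, asRNA:CR45712, Nplp4 (a neuropeptide-like precursor) and Kebab (a kinetochore protein), all lower in sterile lines, and lncRNA:CR44055, which was higher. In adults 4 of 21 genes from 4.4 to 4.5 Mb were called, all lower: Dim1, Elp3, MFS18 (a transporter) and CG15439. At L3 4 of 22 were called there, again all lower: CG15431, morgue, MFS18 and CG15439. The 3 called genes from 3.6 to 3.7 Mb at L3, CG16704, CG16713 and IM33, were all higher. In all, 9 of the 80 stretches of 100 kb held at least 3 called genes in adults and 12 did at L3. Such stretches were not counted outside the interval, so no clustering is read from these counts.

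**Figure D1:**
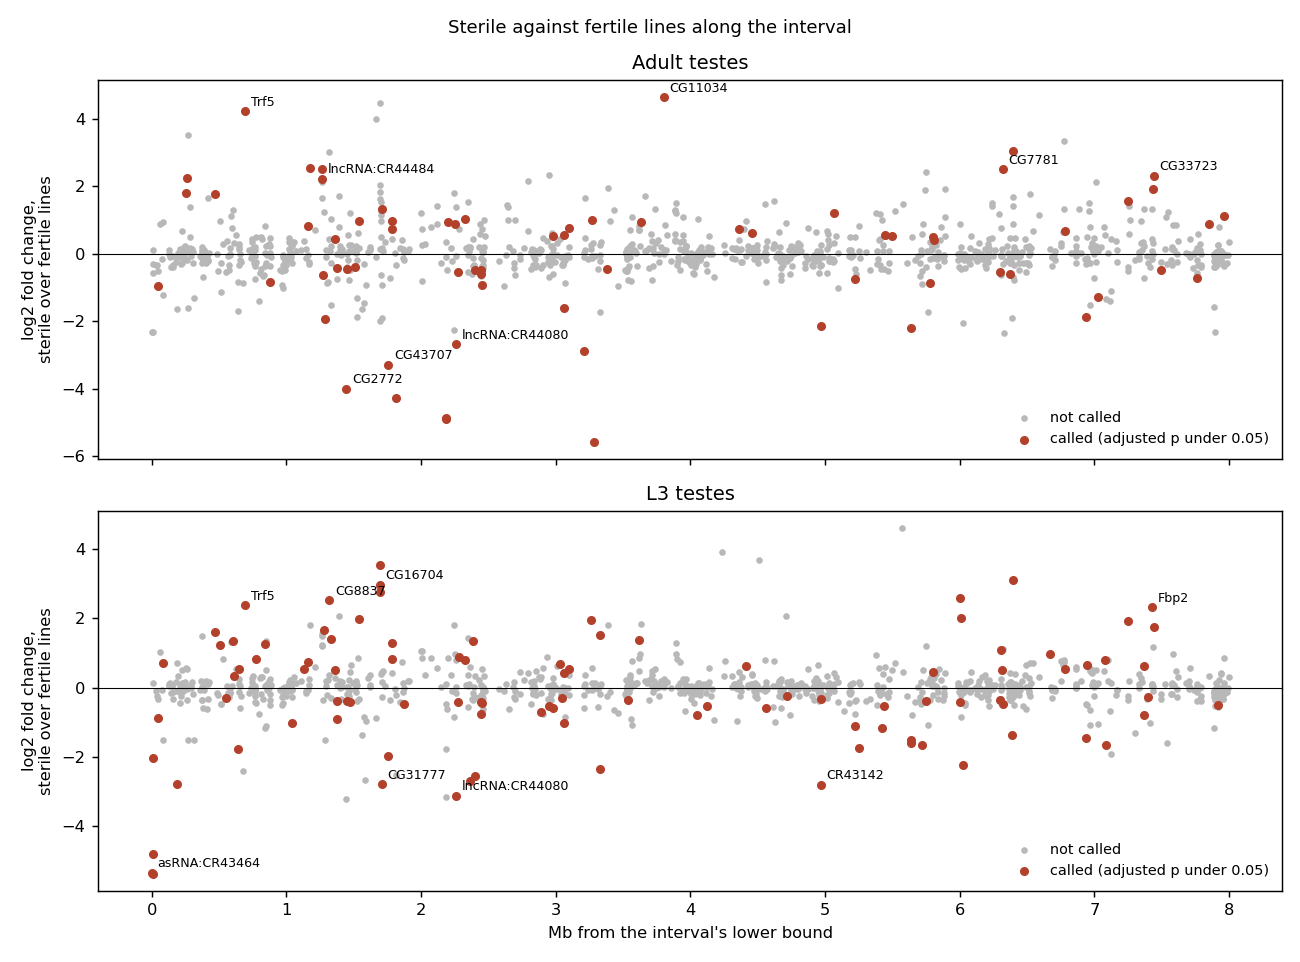
Log2 fold change of sterile over fertile lines for each tested gene of the interval, against its distance in Mb from the lower bound, in adults (upper panel) and at L3 (lower panel). Red points are the called genes, 69 in adults and 99 at L3; grey points are the others, and called genes lie on both sides of 0 along the whole stretch.

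Most genes of the interval differed little. The median size of the log2 fold change was 0.252 in adults and 0.190 at L3, against 0.227 and 0.168 over all genes tested. Of the called genes 31 of 69 in adults and 49 of 99 at L3 differed by at least 1 on the log2 scale. The line levels of the classes did not overlap for 241 genes in adults (98 higher and 143 lower in sterile lines), where 17.4% of all genes had classes apart, and for 223 at L3 (96 higher and 127 lower), where 15.1% had. Non-coding RNA genes made up 29.0% of called and 11.9% of tested genes in adults, and 16.2% and 12.6% at L3. The libraries carry a letter in their codes that may be their row of the plate. Within the adult letters D and E, and within the L3 letters A and B, which hold lines of both classes, all 69 and all 99 called genes had the direction of the pooled value, which the choice of called genes from those same lines nearly fixes. With that letter as a covariate 13 genes were called in adults, 7 of them among the 69, and 28 at L3, 26 of them among the 99. In adults the parental stock was alone in letter C and BM46 alone in F, and L3 letter C held only BM24 and BM46. These lines carry no class information in that fit. The loss of lines and an effect of the letter cannot be told apart.

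CG11034 was near silent in fertile adults and Trf5 was low there, and both were well expressed in sterile adults. Coordinates below are positions on 2L in the count table, CPM values per library are TMM-scaled, and line means carry the SD over 5 sterile or 3 fertile lines. CG11034 (5805395 to 5809063, plus strand) had 8.62 to 34.5 CPM in the 17 sterile adult libraries (median 14.5), against 0.223 to 0.979 CPM in the 12 fertile ones (median 0.607). Its line means were 14.7 ± 4.34 and 0.590 ± 0.125 CPM, a log2 fold change of 4.64 ± 0.30 (SE). At L3 no library of either class exceeded 0.764 CPM. Trf5 (2695330 to 2696437, minus strand), which lies over CG31690 on the other strand, had 44.4 to 70.1 CPM (median 61.8) in sterile adult libraries and 2.50 to 4.89 CPM (median 3.12) in fertile ones. The line means of Trf5 were 57.1 ± 8.07 and 3.08 ± 0.44 CPM, a log2 fold change of 4.22 ± 0.17. Neither gene had a library of one class within the range of the other in adults.

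Pvf2, a ligand related to platelet-derived and vascular endothelial growth factors, differed less but also without overlap. Pvf2 (7069536 to 7084635) had 9.03 to 20.6 CPM in sterile adult libraries (median 13.4), against 4.65 to 7.02 CPM in fertile ones (median 5.67), with line means of 13.2 ± 2.81 and 5.71 ± 0.541 CPM and a log2 fold change of 1.21 ± 0.19. A further 5 named genes were apart in every adult library. The log2 fold changes were 2.51 ± 0.33 for CG7781, which overlaps strat, 2.31 ± 0.25 for CG33723, which overlaps numb, 2.22 ± 0.30 for lncRNA:CR44484, 1.76 ± 0.33 for lncRNA:CR45286 and 1.56 ± 0.24 for the pseudogene CR43734. CG31955 (1.34 ± 0.23) and asRNA:CR43683 (1.11 ± 0.18) had some libraries of the 2 classes within each other's range.

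Genes lower in sterile adults included some with similarly wide gaps. CG2772 (3445992 to 3447589, plus strand) had 0.107 to 1.46 CPM in sterile libraries (median 0.967), against 7.92 to 22.6 CPM in fertile ones (median 17.5). Its line means were 0.973 ± 0.253 and 15.4 ± 6.38 CPM, a log2 fold change of -3.99 ± 0.33. CG43707 (3757256 to 3769525), which overlaps CG43703, had 0.769 to 3.58 CPM in sterile and 9.56 to 20.1 CPM in fertile adult libraries, a log2 fold change of -3.28 ± 0.20. The pseudogene CR43142 (6972243 to 6972796) had 2.43 to 13.0 CPM (median 6.22) in sterile and 23.0 to 32.9 CPM (median 28.9) in fertile adult libraries, a log2 fold change of -2.14 ± 0.25. The sterile libraries lay below every fertile library for all 3 genes.

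Argl, Kebab and CG7154 were also lower in sterile adults. Argl, which encodes argininosuccinate lyase (8939725 to 8942105, overlapping Tsp29Fb and CG9515), had 3.63 to 10.6 CPM (median 5.87) in sterile and 20.1 to 29.4 CPM (median 23.2) in fertile adult libraries, a log2 fold change of -1.86 ± 0.27. Kebab (2045494 to 2048054) had 17.8 to 30.4 CPM (median 24.2) and 33.8 to 59.7 CPM (median 47.4), a log2 fold change of -0.95 ± 0.13. CG7154 had 18.1 to 22.1 CPM (median 20.1) in sterile and 31.5 to 43.0 CPM (median 35.9) in fertile libraries, a log2 fold change of -0.87 ± 0.08. All sterile libraries were below all fertile ones for these 3 genes as well. The remaining named genes were lncRNA:CR44080 (-2.67 ± 0.39), lncRNA:CR44485 (-1.93 ± 0.22), asRNA:CR43820 (-1.61 ± 0.18) and CG15439 (-0.91 ± 0.11).

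In larval testes the largest difference was next to the lower bound. The antisense RNA gene asRNA:CR43464 (2000058 to 2003935, plus strand), which overlaps CG33543, had 0.0809 to 1.596 CPM in the 20 sterile L3 libraries (median 0.203), against 10.7 to 19.1 CPM in the 12 fertile ones (median 15.3). Its line means were 0.370 ± 0.368 and 15.2 ± 2.84 CPM, a log2 fold change of -5.35 ± 0.54. CR43142 had 1.31 to 4.92 CPM (median 3.08) in sterile and 17.9 to 28.7 CPM (median 22.2) in fertile L3 libraries, a log2 fold change of -2.80 ± 0.16. Argl had 7.27 to 26.5 CPM (median 17.0) and 36.6 to 55.1 CPM (median 45.0), a log2 fold change of -1.46 ± 0.23. For these 3 genes no sterile L3 library reached the level of a fertile one. Other named genes lower at L3 were lncRNA:CR44080 (-3.12 ± 0.42), CG31777 (-2.79 ± 0.49), CG43707 (-1.98 ± 0.42), CG13793 (-1.65 ± 0.29), CG42819 (-1.37 ± 0.22), the anion exchanger gene Ndae1 (-1.11 ± 0.19) and the fatty acid synthase gene FASN2 (-1.04 ± 0.20). The line sums of CG31777 at L3 were 16.9 CPM in BM4, 6.20 CPM in BM21 and only 2.31 CPM in the parental stock. In sterile lines they were 0.889 to 1.58 CPM.

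Among genes higher in sterile larvae, CG8837 (3320245 to 3323141) had 11.1 to 21.8 CPM in sterile L3 libraries (median 17.1), against 0.112 to 5.64 CPM in fertile ones (median 3.37), a log2 fold change of 2.53 ± 0.58. The wide fertile range came from the parental stock, as described with the line differences. Trf5 had 12.6 to 61.1 CPM (median 45.9) in sterile and 6.42 to 10.7 CPM (median 8.17) in fertile L3 libraries, a log2 fold change of 2.37 ± 0.32. The classes did not overlap in either gene. CR31958 had 19.5 to 31.3 CPM (median 26.0) and 8.75 to 13.1 CPM (median 10.9), a log2 fold change of 1.27 ± 0.12, again without overlap. Further named genes were CG16704 (2.97 ± 0.34), CR43734 (1.91 ± 0.22), CG33723 (1.76 ± 0.19), lncRNA:CR44789 (1.34 ± 0.24), the sarcoglycan gene Scgalpha (1.07 ± 0.17) and Glt, which encodes glutactin (0.96 ± 0.17).

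Fbp2, a larval fat body protein (start 9426784, overlapping CG42847), had 11.5 to 101 CPM in sterile L3 libraries (median 53.8) and 4.12 to 20.4 CPM in fertile ones (median 10.5), a log2 fold change of 2.32 ± 0.23 with overlapping libraries. Fat body markers moved with the class at L3. The summed level of the 12 markers, all of them detected, was 221 to 2480 CPM (median 1144) in sterile L3 libraries and 109 to 696 CPM (median 211) in fertile ones. In adults it was 71.0 to 955 CPM (median 93.7) and 51.6 to 113 CPM (median 73.8). Of the 4 fat body genes tested in the interval, 1 was called higher in adults (Cyp4ac3, 0.99 ± 0.17) and 2 at L3 (Fbp2, and Cyp4ac1 with 1.95 ± 0.35). Over all genes of the list 1 of 11 was called in adults and 8 of 12 at L3. The part of the fat body signal in these values was not tested.

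The basement membrane genes that were called were all higher in sterile lines. Of 5 genes on the list of basement membrane and extracellular matrix 1 was called higher in adults (LanB1, a laminin chain, 0.42 ± 0.09, with line means of 27.0 and 20.2 CPM) and 2 at L3. These were Col4a1, a collagen chain (0.68 ± 0.17, 90.4 and 56.5 CPM), and Tig, which encodes tiggrin (0.63 ± 0.11). Over all genes of the list 2 of 9 were called in adults and 3 of 9 at L3. The 22 muscle markers, all detected, summed to 1119 to 1538 CPM (median 1268) in sterile and 912 to 1140 CPM (median 1023) in fertile adult libraries, and to 556 to 766 CPM (median 666) and 481 to 676 CPM (median 528) at L3. Hemocyte markers, 11 in number, summed to 87.0 to 129 CPM in sterile and 78.1 to 152 CPM in fertile adult libraries. The part of these cell types in the values was not tested.

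Of the signalling genes 2 of 21 were called in adults, Pvf2 and ft (0.94 ± 0.19, with line means of 12.9 and 6.74 CPM), both higher, and none of 20 was called at L3. Of developmental transcription factors 1 of 11 in adults and 1 of 10 at L3 was called, in each case drm, a zinc finger protein of the odd-skipped family. None of 9 ribosomal protein genes was called at either stage. Among 14 mitochondrial genes none was called in adults and ATPsynGL was lower at L3 (-0.38 ± 0.08). Of 5 testis regulators none was called in adults and 1 was lower at L3, tomb, a subunit of the testis meiotic arrest complex (-0.36 ± 0.09, with line means of 40.5 and 52.0 CPM). Long non-coding RNA genes gave 9 higher and 9 lower of 94 tested in adults and 5 higher and 7 lower of 91 at L3. Antisense RNA genes gave 1 higher and 1 lower of 28 in adults and 4 lower of 31 at L3, namely asRNA:CR43464, asRNA:CR43820, asRNA:CR43865 (-0.79) and asRNA:CR45712 (-4.80 ± 0.36). Over the whole genome the lists gave 77 of 1175 long non-coding and 11 of 381 antisense RNA genes called in adults, and 113 of 1112 and 22 of 388 at L3. The signalling list gave 2 of 26 in adults and 1 of 25 at L3, the transcription factors 1 of 20 and 2 of 19, the testis regulators 0 of 42 and 2 of 42, the mitochondrial genes 1 of 145 and 6 of 145, and the ribosomal protein genes 0 of 91 at either stage.

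In total 28 genes were called at both stages, 15 higher and 13 lower in sterile lines each time. They were 40.6% of the adult and 28.3% of the L3 calls of the interval, while over all genes 195 of 375 adult calls (52%) were also L3 calls. In adults all sterile libraries lay above all fertile ones for 13 of the 28 and below them for 9, and at L3 for 8 and 8. The genes named in this paragraph and the next, and those named for line differences, were chosen after their values were seen, apart from the ones with the widest gaps. The phosphatase gene cdc14, which overlaps r2d2, had 599 to 758 CPM (median 667) in sterile and 398 to 520 CPM (median 481) in fertile adult libraries, with log2 fold changes of 0.49 ± 0.07 in adults and 0.45 ± 0.09 at L3. CG4230, which overlaps ND-13A, had 168 to 190 CPM (median 184) and 86.7 to 119 CPM (median 104) in adults, with log2 fold changes of 0.77 ± 0.06 and 0.54 ± 0.09. Both genes were well expressed, and their adult classes did not overlap.

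The transcription unit of qtc and the antisense RNA gene asRNA:CR43820 on its other strand went opposite ways. The log2 fold change of qtc was 0.57 ± 0.10 in adults and 0.41 ± 0.09 at L3, and that of asRNA:CR43820 was -1.61 and -1.01. Without the strand setting of the counting, reads of the 2 cannot be told apart. Peritrophin-15b had 0.730 to 2.34 CPM (median 1.26) in sterile and 0 to 0.401 CPM (median 0.168) in fertile adult libraries, with log2 fold changes of 3.04 ± 0.33 in adults and 3.11 ± 0.30 at L3. Enzyme genes called at both stages were gkt, which encodes tyrosyl-DNA phosphodiesterase (0.83 ± 0.11 in adults and 0.73 ± 0.14 at L3), and Art2, an arginine methyltransferase gene (-0.55 ± 0.12 and -0.42 ± 0.10). The transcription factor gene drm (0.96 ± 0.16 and 1.97 ± 0.45) and the membrane protein gene bdl (1.03 ± 0.21 and 0.80 ± 0.13) were higher each time. Classes apart in opposite directions at the 2 stages were seen in 2 genes, lncRNA:CR43857 (1.00 ± 0.41 in adults and -1.18 ± 0.26 at L3) and CG18557 (-0.38 ± 0.28 and 1.26 ± 0.24), while 113 were apart in the same direction, of 962 tested at both stages (11.7%). Over all 12825 genes tested at both stages 795 were apart in the same direction (6.20%) and 3 in opposite directions.

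Single lines, and not only classes, differed along the interval. A line was taken to depart where all its libraries lay above, or below, all libraries of the other 7 lines, with its mean at least 1 from the nearest other line mean on the log2 scale. In adults 35 of 989 genes (3.54%) had such a line, beside 2.78% of all genes, and at L3 23 of 913 (2.52%), beside 2.12%. CG7214 departed in 2 lines, which makes 36 departures in adults. The parental stock accounted for 17 of the 36 in adults, 6 higher and 11 lower, and for 17 of the 23 at L3, 3 higher and 14 lower. Over all genes it accounted for 162 of 357 departures in adults and 152 of 258 at L3. BM4 departed in 6 genes in adults (0.607%, beside 0.315% of all genes) and 4 at L3 (0.438%, beside 0.273%), all higher. At L3 no gene of the interval departed in BM1, BM6, BM24, BM46 or BM21. Departures were rare in these lines over all genes too, from 0.0414% in BM46 to 0.215% in BM21. In 13 genes the same line departed in the same direction at both stages.

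The parental stock stood apart at places spread over the interval. The gene dpr3, an immunoglobulin-family cell surface protein gene (2058790 to 2109878), had 1.22, 1.70, 2.28 and 0.324 CPM in the parental adult libraries. The 7 translocation lines had means of 12.6 to 27.2 CPM in adults and 6.33 to 14.5 CPM at L3, where the parental mean was 1.22 CPM. Every translocation line, sterile or fertile, lay above the parental stock. CG15394 (start 2591869) had line means of 3.36 to 11.7 CPM in translocation lines and 0.217 CPM in the parental stock in adults, and of 6.58 to 19.3 CPM and 0.245 CPM at L3. Among the translocation lines the fertile BM21 was the lowest for both genes at both stages.

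Other such genes lay farther along. For lncRNA:CR44059 (start 4246209) the translocation lines had means of 1.63 to 9.42 CPM in adults, against 0.0811 CPM in the parental stock. For lncRNA:CR44745 (start 5387551) they had 1.99 to 7.35 CPM, against 0.0979 CPM. For lncRNA:CR43621 (start 9584670) they had 4.51 to 11.4 CPM, against 0.039 CPM. These 3 long non-coding RNA genes were thus near 0 in the parental stock and counted in all 7 translocation lines. The opposite held for lncRNA:CR44309 (start 3562038), with 70.5, 67.0, 63.0 and 52.2 CPM in the parental adult libraries and line means of 7.82 to 30.9 CPM in translocation lines, and with 36.7 CPM and 3.27 to 17.1 CPM at L3.

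CG8837 showed 3 levels. In adults its 5 sterile lines had means of 31.8 to 34.6 CPM, the fertile translocation lines BM4 and BM21 had 5.22 and 7.12 CPM, and the parental stock had 0.131 CPM. At L3 the sterile lines had 14.1 to 18.9 CPM, BM4 and BM21 had 3.63 and 4.53 CPM, and the parental stock had 0.287 CPM. No library crossed from one level to the next at either stage. CG34393 (start 3175112) was graded in the same order, with 1.76 to 3.06 CPM in sterile lines, 0.595 and 0.591 CPM in BM4 and BM21, and 0.117 CPM in the parental stock in adults.

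BM4 stood above all other lines in several genes from 2.2 to 3.7 Mb. The gene eys (2311680 to 2358944), which encodes a secreted protein of the space between photoreceptor membranes, had 6.80, 6.04, 4.73 and 5.07 CPM in BM4 adults and 6.40, 6.77, 7.28 and 5.78 CPM in BM4 larvae. The other line means were 0.838 to 1.16 CPM in adults and 0.784 to 1.33 CPM at L3. The BM4 level of lncRNA:CR43753 (start 2271319) was 17.6 CPM in adults, where the other lines had 1.61 to 3.39 CPM, and 9.12 CPM at L3, where they had 1.26 to 4.48 CPM. The BM4 level of CG31777 (start 3706551) was 8.46 CPM in adults and 17.2 CPM at L3. BM21 came next for CG31777, at 3.78 CPM in adults and 6.61 CPM at L3. The remaining lines had 0.826 to 2.04 CPM in adults and 0.886 to 2.24 CPM at L3. In lncRNA:CR44066 (start 2186975) BM4 was alone in adults (4.57 CPM, against 0.457 to 0.693 CPM), and at L3 it was joined by BM21 (7.77 and 2.89 CPM).

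Other line differences were seen at 1 stage and not at the other. The potassium channel gene Shawl (start 9370309) had 7.24, 5.28 and 5.71 CPM in the 3 deeper BM6 adult libraries, against line means of 0.144 to 0.746 CPM elsewhere, a gap of 2.85 on the log2 scale. At L3 the BM6 libraries of Shawl were at 0.563 to 0.926 CPM, within the range of the other lines. The mucin gene Muc30E (start 9897820) was low in 2 lines and not in a single one. It had no count in BM24 adults and 2 counts in BM5 adults, where the parental libraries had 8.95, 9.45, 13.1 and 11.03 CPM and the BM4 libraries 30.8 to 48.7 CPM. BM5 larvae had 47.1, 44.9, 48.0 and 33.6 CPM of Muc30E, the highest line at L3, so that the same line was near 0 in adults and high in larvae.

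To describe how the lines sorted, genes were taken in which the lines fell into 2 sets with every library of one above every library of the other, a step added after seeing the data. Each gene was split once, at the widest gap between its ordered line means, which had to be at least 1 on the log2 scale, so a gene whose widest gap lay elsewhere is not counted with the parental stock here even where that stock departed. In adults 64 of 989 genes were of this kind, beside 4.77% of all genes, and at L3 51 of 913, beside 3.69%. The sets were the sterility classes in 15 genes in adults and 11 at L3, the parental stock against all others in 15 at each stage, and another grouping in 34 and 25. Over all 12713 genes tested in adults 70 were split by class and 151 with the parental stock alone. Over all 12071 genes tested at L3 these counts were 65 and 142. The split genes gathered at the lower end of the interval. Of the split genes 56.3% in adults and 74.5% at L3 started below 5 Mb, where 38.0% of the tested genes did at either stage. Non-coding RNA genes were 43.8% and 51.0% of them. At both stages 32 genes were split, and 16 of them in the same way.

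**Figure D2:**
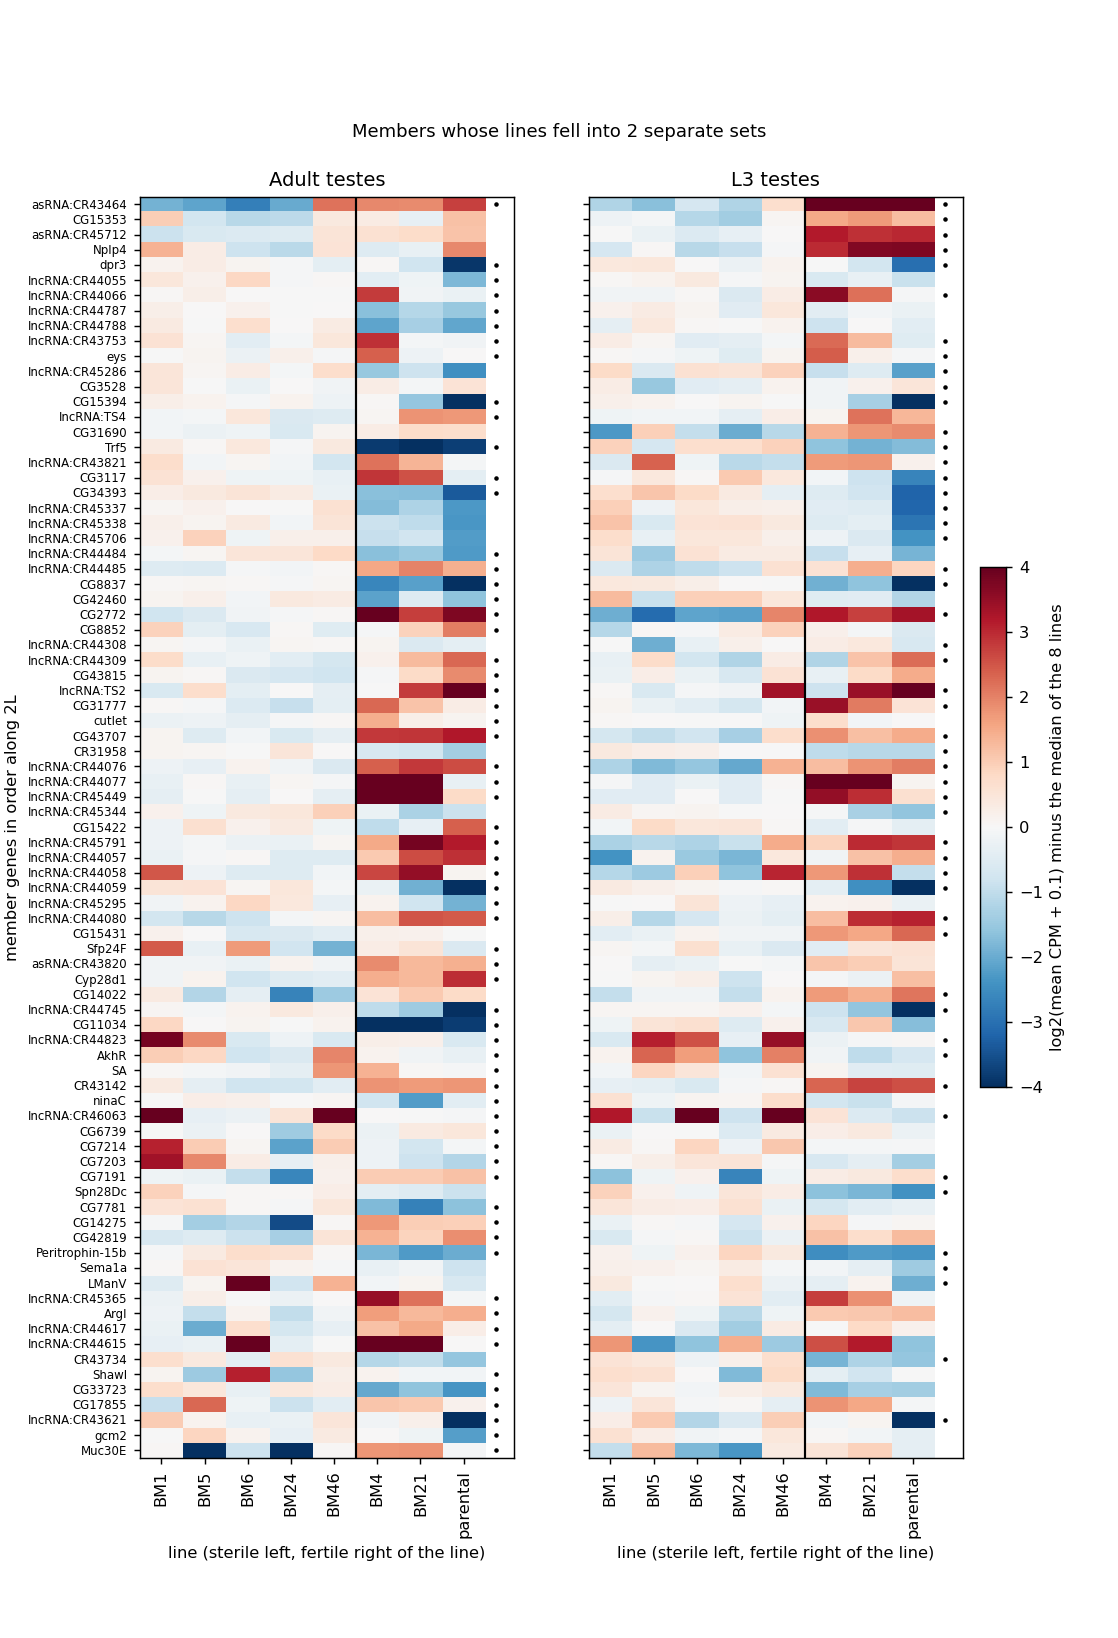
Genes of the interval whose lines fell into 2 separate sets at least at 1 stage, ordered along 2L, with sterile lines left of fertile lines and the parental stock, in adults (left) and at L3 (right). Colour is the log2 of the line mean (CPM + 0.1) minus the median of the 8 lines, and black dots mark the stage at which the lines were apart (64 genes in adults and 51 at L3).

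BM46 changed sides between the stages in these splits at the widest gap. In 5 genes at L3 the widest gap left BM46 with the fertile lines, above BM1, BM5, BM6 and BM24. They were lncRNA:CR44485, CG2772, CG43707, lncRNA:CR44076 and lncRNA:CR45791, which start from 3.29 to 4.19 Mb. Over all genes 6 were split this way at L3, so 5 of the 6 lay in the interval. CG2772 had 23.2, 18.9, 15.3 and 9.85 CPM in BM46 larvae and 0.878, 0.749, 1.27 and 1.22 CPM in BM1 larvae, against 44.2, 43.6, 40.2 and 46.5 CPM in parental larvae. In adults the BM46 libraries of CG2772 had 1.46, 1.08, 1.19 and 1.19 CPM, within the range of the other sterile lines. CG43707 behaved likewise, with 4.56, 5.20, 3.35 and 3.69 CPM in BM46 larvae and 1.46, 1.39, 1.04 and 0.908 CPM in BM46 adults. The line sum of CG43707 in BM46 larvae (4.23 CPM) was still below those of the fertile lines (5.71 to 9.36 CPM).

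The order of stages was the other way for asRNA:CR43464. In adults BM46 had 4.22, 5.17, 5.78 and 6.36 CPM, within the range of the fertile lines (3.77 to 10.5 CPM), while the deeper libraries of BM1, BM5, BM6 and BM24 had at most 0.320 CPM. At L3 BM46 had 1.13, 0.371, 0.858 and 1.596 CPM, on the sterile side, although above the other sterile lines on average. By the widest gap BM46 was thus grouped with the fertile lines for CG2772 in larvae and for asRNA:CR43464 in adults.

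BM5 larvae were the second such case. For Trf5 the BM5 larvae had 12.6, 14.9, 21.7 and 20.2 CPM and the other sterile larvae 39.6 to 61.1 CPM, against 6.42 to 10.7 CPM in fertile larvae. BM5 adults had 51.7, 51.6, 53.2 and 48.7 CPM of Trf5, within the range of the other sterile lines. CG31690, which overlaps Trf5, was at 1.86 CPM in BM5 larvae and 0.108 to 0.434 CPM in the other sterile lines, against 2.57 to 3.66 CPM in fertile lines. The level of lncRNA:CR43821 (start 2797832) was 4.82 CPM in BM5 larvae, 3.04 CPM in BM4 and 3.18 CPM in BM21 larvae, and 0.984 CPM in parental larvae. These genes start between 2.6 and 2.8 Mb. In Trf5 and CG31690 the BM5 larvae were nearer to fertile than to the other sterile lines. In lncRNA:CR43821 BM5 was the highest line, and only BM4 and BM21 were near it. The parental stock had 49 counts of that gene at L3, within the 22 to 59 counts of the other sterile lines, against 325 in BM5.

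**Figure D3:**
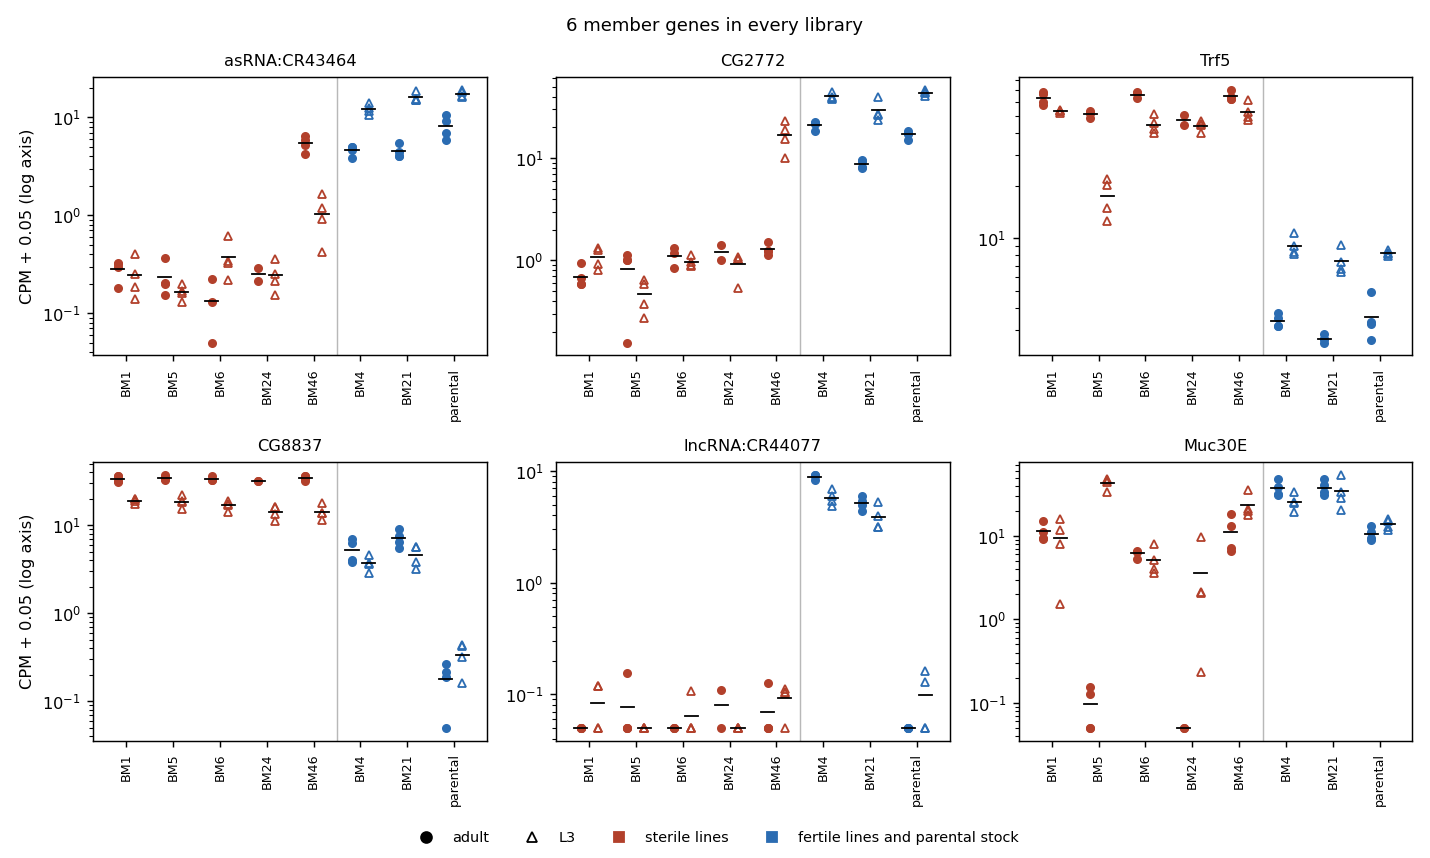
CPM + 0.05 on a log axis in every library of at least 1000000 counts for asRNA:CR43464, CG2772, Trf5, CG8837, lncRNA:CR44077 and Muc30E, by line, with sterile lines in red left of fertile lines and the parental stock in blue. Filled circles are adult libraries, open triangles L3 libraries, and dashes line means; CG2772 in BM46, Trf5 in BM5 and Muc30E in BM5 lie far apart at the 2 stages.

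Some genes were counted in the fertile translocation lines and hardly elsewhere. For lncRNA:CR44077 BM4 adults had 8.92, 9.08, 9.15 and 8.18 CPM and BM21 adults 5.37, 4.28, 4.93 and 5.91 CPM, against 0 in all 4 parental libraries. No deeper library of a sterile line exceeded 0.107 CPM of lncRNA:CR44077. At L3 BM4 had 4.80 to 6.85 CPM and BM21 3.12 to 5.24 CPM, against at most 0.112 CPM in the parental stock. The same lines were high for lncRNA:CR45449, at 3.43 and 2.03 CPM in adults and at 1.46 and 0.956 CPM at L3.

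Other groupings mixed the classes. For lncRNA:CR44615 (start 9124032) BM6, BM4 and BM21 adults had means of 12.7, 5.12 and 11.9 CPM, and the other 5 lines at most 0.114 CPM. For lncRNA:CR46063 (start 7567929) BM1 and BM46 adults had 3.14 and 7.42 CPM and the others at most 0.114 CPM, and at L3 BM6 joined them (7.82 CPM, with 2.80 CPM in BM1 and 10.9 CPM in BM46). The adipokinetic hormone receptor gene AkhR (start 6711286) was highest in BM46 adults (5.80 CPM), and at L3 it had 9.38 CPM in BM5, 5.91 CPM in BM6 and 7.43 CPM in BM46, while no other line exceeded 1.96 CPM. The cohesin gene SA (start 6950421) had 16.0 CPM in BM46 and 12.5 CPM in BM4 adults, against 3.62 to 4.85 CPM in the other lines.

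Each translocation line was also set against the parental stock, and all these comparisons share the parental libraries. In adults 525 of 989 genes of the interval (53.1%) were called in BM1, beside 51.2% of all genes. The counts were 402 in BM6 (40.6%, beside 38.5%), 347 in BM46 (35.1%, beside 34%), 303 in BM5 (30.6%, beside 31.1%) and 300 in BM24 (30.3%, beside 28.5%). In the fertile lines they were 192 in BM4 (19.4%, beside 17.8%) and 197 in BM21 (19.9%, beside 19.6%). At L3 the shares of 913 genes were 41.0% in BM1 (beside 43.5%), 46.5% in BM5 (43.9%), 46.3% in BM6 (44.9%), 48.2% in BM24 (42.9%) and 47.6% in BM46 (45.5%), with 38.3% in BM4 (37.7%) and 33.7% in BM21 (34.8%). The shares were near those over all genes. Without the libraries high in accessory gland markers 226 genes were called in BM6 adults, and without the shallow libraries 292 in BM4 adults. The former setting left BM6 adults with replicate 4 and the shallow replicate 3 only. Fewer libraries and less gland RNA cannot be told apart there.

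Named differences from the parental stock included asRNA:CR43464, CG2772 and CG8837. In adults the log2 fold change of asRNA:CR43464 was -5.11 ± 0.30 in BM1, -5.47 ± 0.32 in BM5, -6.34 ± 0.37 in BM6 and -5.32 ± 0.40 in BM24. That of CG2772 was -4.72 ± 0.27 in BM1, -3.98 ± 0.28 in BM6 and -3.80 ± 0.25 in BM46. CG8837 was higher by 7.71 ± 0.26 in BM5, 7.57 ± 0.27 in BM24 and 7.71 ± 0.26 in BM46, over 9 counts in the 4 parental libraries together. In the fertile lines the named genes were lncRNA:CR44309 in BM4 (-2.17 ± 0.15), CG4259 in BM4 (-2.14 ± 0.23), CG15353 in BM21 (-1.51 ± 0.26) and Eaat1, a glutamate transporter gene, in BM21 (-1.59 ± 0.26). Eaat1 had 3.33, 3.64, 4.31 and 4.06 CPM in BM21 adults, against 12.5, 16.0, 9.46 and 6.49 CPM in parental adults.

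At L3 the named differences were of similar size. The log2 fold change of asRNA:CR43464 was -6.38 ± 0.27 in BM1, -7.11 ± 0.28 in BM5, -5.72 ± 0.23 in BM6, -6.45 ± 0.26 in BM24 and -4.10 ± 0.20 in BM46. That of CG2772 was -5.42 ± 0.23 in BM1, -6.64 ± 0.26 in BM5, -5.56 ± 0.22 in BM6 and -5.65 ± 0.23 in BM24. CG15394 was higher in BM24 larvae by 6.18 ± 0.21, with 18.2, 17.9, 17.4 and 18.8 CPM, against 0.225, 0.380, 0.0667 and 0.311 CPM in parental larvae. In BM4 larvae lncRNA:CR44309 had a log2 fold change of -3.48 ± 0.16, with 3.14, 3.21, 3.55 and 3.19 CPM, against 34.9, 37.3, 31.2 and 43.5 CPM in parental larvae. CG9029 was named in BM1 (10.49 ± 2.69), BM6 (8.98 ± 2.71), BM4 (8.00) and BM21 (7.81) adults, and CG43057, which overlaps CG14277, in BM1 and BM6 adults. CG9029 had 1272, 5.24, 0.619 and 60.5 CPM in BM1 adults and 0.417, 0.428, 0.137 and 208 CPM in BM21 adults, against at most 0.612 CPM in parental adults. CG43057 had 45.3, 0.133, 0 and 3.78 CPM in BM1 adults, against 0 in all 4 parental adult libraries. In both genes the high libraries were those high in accessory gland markers, whose part in these values was not tested.

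The level of the interval as a whole did not separate the classes. The mean log2 CPM of its genes minus that of chromosome 3 genes was -0.10 ± 0.07 in BM1, -0.20 ± 0.01 in BM5, -0.24 ± 0.06 in BM6, -0.32 in BM24 and -0.17 ± 0.02 in BM46 adults (SD over libraries), against -0.09 ± 0.06 in BM4, -0.21 ± 0.05 in BM21 and -0.15 ± 0.02 in the parental stock. The sterile and fertile values overlapped. At L3 the line values ran from -0.12 to 0.03 in sterile and from -0.03 to 0.03 in fertile lines. BM6 and BM24 lay below every fertile line at both stages, at -0.12 ± 0.02 and -0.12 ± 0.01 at L3. The sterile lines BM1 and BM5 lay among the fertile lines at both stages, and BM46 was the highest line at L3. For each of 15 pairs of a sterile and a fertile line, the absolute difference in log2 CPM was summarised by its median over genes. The median over pairs was 0.294 in adults, against 0.209 for pairs of sterile lines and 0.215 for pairs of fertile lines. From 3 to 4 Mb the value for a sterile and a fertile line was 0.376 in adults and 0.332 at L3, and from 6 to 7 Mb it was 0.232 and 0.183. Over all genes it was 0.283 in adults and 0.227 at L3.

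Adult and larval testes differed in most genes of the interval. In edgeR's quasi-likelihood test over the 16 line sums with the line as a block, 864 of 1094 genes (79.0%) passed the adjusted threshold, 445 higher and 419 lower in adults, beside 78.5% of all 14230 genes (40.2% higher and 38.3% lower). With scaling by library size alone the median of all genes moved by -0.42 on the log2 scale, and the split became 340 higher and 555 lower. By position, 66 genes rose and 41 fell in adults from 3 to 4 Mb (median log2 fold change 0.45), and 50 rose and 72 fell from 6 to 7 Mb (median -0.14). A sum per line is the replicate here, with 8 sums at each stage.

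CG33281 (3324237 to 3326637), next to CG8837, had line sums of 48.2 to 110 CPM in adults and 0.0313 to 0.143 CPM at L3, higher in 8 of 8 lines by 9.89 ± 0.17 on the log2 scale (edgeR adjusted p = 6.42e-12). CG16995, which overlaps CG9967, had 8.06 to 17.2 CPM in adults and 0 to 0.0470 CPM at L3 (9.25 ± 0.28, edgeR adjusted p = 2.46e-10, 10 counts at L3 in all). Both changes were as large without the libraries high in accessory gland markers (9.82 and 9.22). Named genes with smaller changes without those libraries were BG642163, CG9029, CG15635, CG14034, CG31883 and lectin-29Ca. BG642163 (11.04 ± 0.62, edgeR adjusted p = 2.24e-08) had adult line sums of 0.129 to 209 CPM, and its log2 fold change without those libraries was 5.78. Without them that of CG9029 was 4.09 (10.38 with them), of CG15635 5.09 (9.97), of CG14034 5.13 (9.91), of CG31883 4.29 (9.05) and of lectin-29Ca 3.95 (8.66).

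The 13 seminal fluid genes of the interval, which encode secreted proteins passed to the female with sperm, all rose in adults. Over all genes of that list 32 of 32 passed the threshold. Their summed level was 141 to 1453 CPM (median 235) in the 7 adult libraries high in accessory gland markers, 3.68 to 362 CPM (median 8.16) in the other 22 adult libraries, and 4.26 to 7.43 CPM (median 5.69) in L3 libraries. Sfp24Bb and Acp24A4 had no count at L3 and 2711 and 2162 counts in adults, at least 993.7-fold and 792.5-fold higher in adults with a floor of 3 counts over all L3 libraries. BM46 replicate 1 held most of these counts, and without it the bounds were 158-fold and 150.4-fold. Without the 7 libraries Sfp26Ad no longer passed the test (0.20 ± 0.10, edgeR adjusted p = 0.0978), and Sfp23F, Sfp24C1 and Sfp26Ac were not tested. How much of the adult rise came from the gland was not tested.

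**Figure D4:**
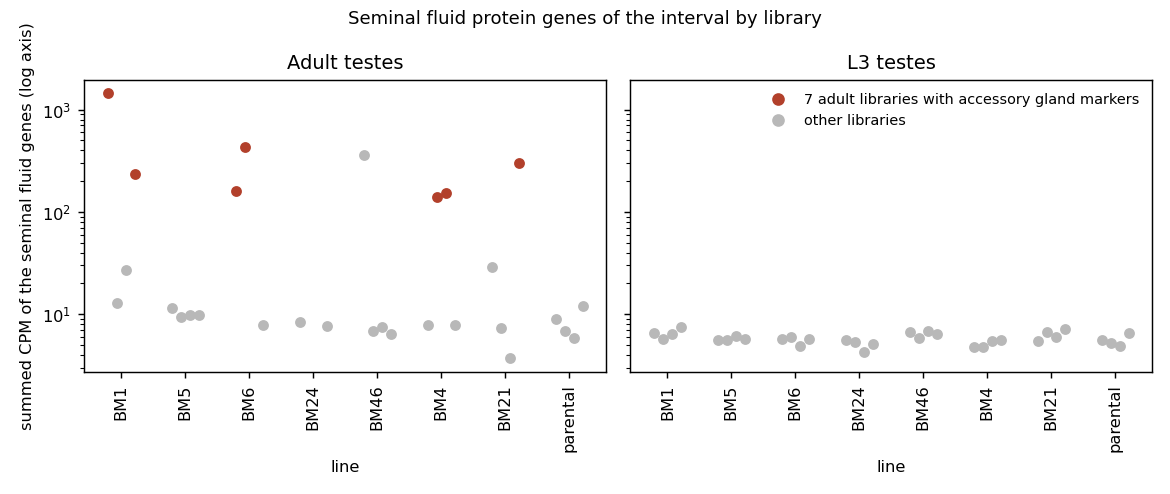
Summed CPM of the 13 seminal fluid genes in each library of at least 1000000 counts, on a log axis, for adult and L3 libraries. Red points are the 7 adult libraries high in accessory gland markers (141 to 1453 CPM); grey points are the others, of which adult BM46 replicate 1 (362 CPM) is the highest.

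Among genes that fell in adults, oaf had 98.6 ± 22.4 CPM in adults and 234 ± 32.5 CPM at L3 (SD, n = 8 line sums each; -1.26 ± 0.06, edgeR adjusted p = 4.27e-09). Taf12L, a testis-specific TAF that acts in spermatocytes and overlaps CG34351, fell to 46.3 ± 16.6 CPM, against 108 ± 17.3 CPM at L3 (-1.29 ± 0.12, edgeR adjusted p = 1.74e-06). The neurogenic channel gene bib fell to 4.80 ± 1.17 CPM, against 12.8 ± 1.25 CPM (-1.44 ± 0.11, edgeR adjusted p = 2.53e-07). Nha1, a sodium proton exchanger gene, fell to 5.64 ± 0.74 CPM, against 13.0 ± 1.36 CPM (-1.21 ± 0.07, edgeR adjusted p = 1.63e-08). Fbp2 fell to 4.90 ± 5.70 CPM, against 30.1 ± 19.4 CPM (-2.88 ± 0.58, edgeR adjusted p = 0.000731), and the sums of fat body markers given above were also lower in adults in their medians. Of the 4 fat body genes tested in the interval, however, Fbp2 was the only 1 that fell, and 3 rose in adults. Over all genes of that list 10 of 12 passed the threshold. The remaining named genes that fell were CG31778 (-1.54), CG3251 (-1.24), CG5149 (-1.21), the mechanosensory channel gene Piezo (-1.16) and CR43100 (-1.16).

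Gene groups moved in both directions between the stages. Of 9 ribosomal protein genes 8 fell in adults, RpS2 among them (-1.03 ± 0.06, edgeR adjusted p = 2.3e-08), and RpS28-like rose (1.46 ± 0.09). Of 22 signalling genes 12 rose and 6 fell. Those that rose included ft (1.76 ± 0.08), the BMP ligand dpp (1.41 ± 0.07) and Wnt6 (1.24), and those that fell included the BMP effector Mad (-0.58 ± 0.04), its receptor tkv (-0.29) and Wnt4 (-0.34). Of 11 developmental transcription factors 5 rose, among them drm (3.54 ± 0.27), and 2 fell, lid (-0.65) and eya (-0.49). That list also holds the clock gene tim, which rose (4.15 ± 0.18) and does not encode a developmental transcription factor. Of 5 testis regulators capu, a formin (1.16 ± 0.04), and Hsp60C (0.71) rose, and tomb (-1.06 ± 0.04) and Taf12L fell. Over all genes of these lists 88 of 91 ribosomal protein genes and 23 of 27 signalling genes passed the threshold in either direction. So did 12 of 20 genes of the transcription factor list and 41 of 42 testis regulators.

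Of 14 mitochondrial genes 4 rose and 8 fell, with ND-B8 (0.89) and mRpS2 (-0.92) as examples. Both proteasome genes fell, Rpn11 by 0.45 on the log2 scale. Of 9 cytochrome P450 genes 5 rose and none fell, with Cyp4ac1 (4.70 ± 0.32) and Cyp4e3 (3.83) the largest. Of 5 genes of basement membrane and extracellular matrix LanB1 fell (-0.97 ± 0.06), and Msp300 rose (0.73), which encodes a nesprin of the nuclear envelope and cytoskeleton and not a matrix protein. Long non-coding RNA genes rose in 56 and fell in 20 of 115 cases, and antisense RNA genes rose in 7 and fell in 11 of 32. Over all genes of these lists 127 of 145 mitochondrial, 42 of 48 proteasome and 65 of 80 cytochrome P450 genes passed the threshold. So did 6 of 9 genes of the basement membrane list, 902 of 1321 long non-coding and 250 of 416 antisense RNA genes.

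The class difference was also compared between the stages gene by gene, as a description. No gene passed the adjusted threshold, in the interval or among all 14230 genes (0% called) in edgeR's quasi-likelihood test, although 153 genes of the interval had an unadjusted p under 0.05 and DESeq2 called 30. These counts rest on class values that the choice of the interval used, so nothing is read from them.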

How the data were processed

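Poly(A) RNA libraries that keep strand were made from 350 ng of RNA and read as single ends of 50 bases, per the labels' protocols. Reads were handled with bcl2fastq 1.8, cutadapt, HISAT2 2.1.0 and featureCounts 1.6.1, per the submitters' processing notes. Neither genome build nor strandedness of the counting is given in the sources used here, so values of the 499 genes that overlap a gene on the other strand, antisense RNA genes included, are uncertain. Raw counts per gene, as deposited by the authors without normalization, were the starting point. Of the 1296 genes, 1291 had an identifier in the BDGP6 annotation and 1289 had the same coordinates there. No genome sequence was used here, and promoters were not analysed here.

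Counts were tested with edgeR 4.0.16 in R 4.3.3 (TMM scaling, filterByExpr, quasi-likelihood F test, Benjamini-Hochberg adjustment over all genes, threshold 0.05). Classes were compared on line sums per stage (5 against 3), stages and the interaction on 16 line sums with the line as a block, and lines with the parental stock on the 32 libraries of a stage. The labels call replicates pools and name no separate crosses, so p-values of the line comparison measure the spread between pools, which may be technical. CPM per library are TMM-scaled, those of marker and seminal fluid sums are per library total, and levels of the interval used a prior count of 2. Named genes were, for class and stage, the 10 largest changes each way among called genes with a mean log2 CPM of at least 1 (for class also with line levels apart), for each line and stage the 2 largest each way, and 2 departures with the widest gap. Folds against at most 3 counts were not given, except as bounds. Tables and figures used Python 3.11.15, pandas 2.3.3, numpy 2.4.6 and matplotlib 3.10.9, and all fits were tested on simulated counts. The interval, the gene lists and the tests were chosen with earlier results of these data known. Alternatives were other scaling, no filter, DESeq2 1.42.0, the plate letter, a replicate block, and leaving out libraries or lines.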

Additional observations from a re-analysis of the deposited data

Results flagged for a closer look

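In 14 of 92 groups examined, 1 value lay far from the rest of its group (a gap to the nearest value above Dixon's critical value). Most groups were the lines of a named gene, and some were the libraries of 1 line for the level of the interval. All 14 flagged groups were lines of a named gene. Chance flags about 1 group in 20.

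Among sterile larvae BM5 had 17.7 CPM of Trf5, and BM46 had 1.02 CPM of asRNA:CR43464 and 4.23 CPM of CG43707. Among sterile adults BM1 had 22.4 CPM of CG11034 and 10.6 CPM of CR43142, the highest of the 5 lines in each.

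In the stage comparison BM1 adults were far above the other lines for BG642163 (208.7 CPM), CG9029 (388.1 CPM), CG14034 (56.0 CPM) and lectin-29Ca (43.9 CPM), and 2 of the 4 BM1 adult libraries were high in accessory gland markers. BM46 adults were far above the others for Sfp24Bb (49.5 CPM) and Acp24A4 (38.2 CPM), through replicate 1. Among L3 lines CG31883 was 0.0972 CPM and CG3251 44.2 CPM in BM24, and bib was 15.4 CPM in BM4. The causes were not tested.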

How the results depend on the processing

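The class counts (69 in adults and 99 at L3) were 181 and 176 with DESeq2 and 13 and 28 with the plate letter as a covariate. In the fit with the letter, lines whose letter holds a single class carry no class information. Leaving out 1 line gave 23 to 62 in adults and 60 to 103 at L3. Without the shallow libraries 70 genes were called in adults, all 69 among them, and without those high in accessory gland markers 79, with 67 of 68 still called. The interaction count of 0 was 30 with DESeq2, 3 with RLE size factors, 3 without the filter, 2 without libraries high in accessory gland markers, and 0 to 1 with 1 line left out. The stage count was 829 to 862 with 1 line left out and 722 without the line block.

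In adults DESeq2 called 330 genes in BM1, 166 in BM5, 231 in BM6, 139 in BM24, 183 in BM46, 93 in BM4 and 88 in BM21, 1230 in sum against 2266. BM4 had 292 without the shallow libraries and BM6 226 without those high in accessory gland markers, which left BM6 with a single deeper library. Scaling by library size alone gave 236 higher and 326 lower in BM1 adults, against 294 and 231, with a shift of -0.12 in the median of all genes. It also gave 121 higher and 231 lower in BM5 adults, 141 and 72 in BM4 adults, and 224 and 129 in BM4 larvae. Leaving out 1 replicate gave, for BM1, BM5, BM6, BM24, BM46, BM4 and BM21 in this order, counts of 385 to 482, 227 to 278, 288 to 367, 168 to 284, 245 to 306, 121 to 151 and 106 to 175 in adults (1623 to 2025 in sum). At L3 the counts were 298 to 345, 332 to 355, 338 to 401, 371 to 410, 348 to 412, 262 to 294 and 204 to 273 (2185 to 2426 in sum).

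Same-numbered replicates of different lines had a median correlation of -0.006 in adults (-0.874 to 0.855) and -0.02 at L3 (-0.589 to 0.601). The medians for differently numbered replicates were 0.001 and 0.01. Of the same-numbered pairs 30 of 92 in adults and 38 of 112 at L3 were above 0.1. Whether some of these pairs share a batch was not tested. A replicate block gave 2151 calls in sum in adults and 2734 at L3, against 2266 and 2755, and of the named genes CG9029 in BM21 adults lost its call (7.51 ± 3.36, edgeR adjusted p = 0.129). Departures (36 in adults and 23 at L3) were 77 and 50 with a gap of 0.5, 10 and 9 with a gap of 2, and 15 in adults with the shallow libraries. For single named genes 1515 of 1600 other settings were counted as the same, 70 lost the call, 15 gained it and none reversed the direction. The 1515 include 20 values within each of the plate letters A, B, D and E. Those had no test and were counted by direction alone, which the choice of genes nearly fixes. Of the 70, 24 lost it with the plate letter as a covariate, under which 16 kept it. The causes of these shifts were not tested. Depth limits the 3 shallow adult libraries and genes under about 1 CPM.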
